A study of Mus musculus with 42 samples.

Results

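Cytosolic ribosomal protein genes encode the proteins of the large subunit (symbols starting Rpl) and of the small subunit (symbols starting Rps) of the ribosome that translates cytoplasmic mRNA. The members were all genes of the stage table with such a symbol followed by a number, without Rps4x and without the kinase genes whose names start with Rps6k, which gave 82 of 24083 genes. Of these, 49 were Rpl and 33 Rps symbols. Most encode a standard component of the ribosome (72 symbols), and 10 are paralogs or lookalike symbols (Rpl3l, Rpl7l1, Rpl10l, Rpl22l1, Rpl36al, Rpl39l, Rps4l, Rps27l, Rps27rt and Rps19bp1). All 82 were also in the morula table of 23986 genes. On the autosomes lay 79 members, and Rpl10, Rpl36a and Rpl39 lay on the X chromosome; these 3 were also in the EedmNull table of 1052 X-linked genes.

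The series holds 42 mouse embryo samples, sequenced after oligo-dT capture by Smart-seq2, a full-length cDNA method for very small inputs. All have a PWK/PhJ father, so that the maternal and the paternal allele could be listed separately as FPKM, fragments per kilobase of transcript scaled to library size. The stage table covers wild-type female embryos of C57BL/6N mothers: 8-cell embryos (3 samples), morulae (3), inner cell mass (2) and trophectoderm (3) of E3.5 blastocysts, epiblast (1), visceral endoderm (3) and extraembryonic ectoderm (2) at E6.5, and yolk sac at E9.5 (1). The morula table covers, from the same cross, wild-type control males (4), wild-type control females (3) and females labelled Xp XRRa KO (4), a knockout of the paternal X chromosome's copy of a region the labels call XRRa; whether the region was absent was not checked here. The EedmNull table covers extraembryonic ectoderm of 13 female E7.5 embryos labelled EedmNull, from mothers with floxed Eed and Gdf9-Cre, a recombinase driven by an oocyte promoter, and wild-type PWK/PhJ fathers. Eed encodes a subunit of the Polycomb complex PRC2. That table has no control embryos.

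In the stage and morula tables the authors gave 1 value per allele and group, so no spread between embryos can be computed and no difference between those groups was tested. The tables were normalized separately, and levels are compared within a table. Read depth is unknown, since no counts were given. As every father was PWK/PhJ, an effect of strain cannot be told apart from one of parental origin. Summed marker FPKM was 1025 for pluripotency genes in inner cell mass and 597 in epiblast, where Klf2 was at 0. It was 6017 for trophectoderm genes in trophectoderm, 12903 for visceral endoderm genes in visceral endoderm and 369 for extraembryonic ectoderm genes in extraembryonic ectoderm. Inner cell mass also held trophectoderm markers at 1434 FPKM and extraembryonic ectoderm held visceral endoderm markers at 1237 FPKM, with all 8 genes of each list above 0. Pluripotency markers stood at 328 FPKM in extraembryonic ectoderm and trophectoderm markers at 701 FPKM in visceral endoderm, again with all 8 above 0. The yolk sac had visceral endoderm markers at 16412 FPKM and 5 of 6 blood genes at 0, all but Hbb-bh1, and 81.3% of all its genes were listed at 0, against 37.3% to 55.4% in the other stage groups. In bulk samples, fewer cells of a type and less RNA per cell cannot be told apart.

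Ribosomal proteins are made in matched amounts, assembled on ribosomal RNA in the nucleolus and exported as subunits, and their mRNAs are among the most abundant and shortest of a growing cell. Many begin with a C followed by a run of pyrimidines, the terminal oligopyrimidine tract, through which mTOR signalling controls their translation. The oocyte hands the embryo a store of ribosomes, and the embryo's own ribosomal protein genes become active early in cleavage. Several have a paralog with a restricted pattern, often a retrogene, which is an intronless copy made from an mRNA.

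The promoters of 62 members were matched in RefSeq (GRCm38.p6, a build later than the mm9 of the files), as windows of 300 bases, 250 before the annotated start and 50 from it. A C at the start followed by at least 4 pyrimidines was present in 12 of 62 members (19.4%) and in 2.49% of 27025 genes. CTTCCG, the core of sites for ETS family factors, was present on either strand in 42 of 62 (67.7%), against 17.2% of genes. AAGATGGC, a core of YY1 sites, was in 5 of 62 (8.06%, against 2.88%), and GGGCGG, the GC box, in 36 of 62 (58.1%, against 35.9%). These matches describe letters in the windows, and annotated starts can lie some bases off the true ones. The sequences below, 100 bases before the start and 20 from it, are shown for the paralog pairs whose levels parted during development, for a gene with a tract at its start in each subunit, and for the members with distinctive levels or allele shares. Capitals mark CTTCCG, AAGATGGC or their reverse complements, and a C-plus-pyrimidine tract at the start. Rpl39 lies at chrX:37085203-37085322 (minus strand) and Rpl39l at chr16:10170128-10170247 (plus strand).
Rpl39: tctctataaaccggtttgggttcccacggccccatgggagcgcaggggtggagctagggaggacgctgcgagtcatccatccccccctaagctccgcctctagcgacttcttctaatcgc
Rpl39l: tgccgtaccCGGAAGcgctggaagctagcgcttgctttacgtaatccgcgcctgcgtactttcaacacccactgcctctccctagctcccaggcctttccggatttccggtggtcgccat
Rpl22 lies at chr4:152325626-152325745 (plus strand) and Rpl22l1 at chr3:28805408-28805527 (plus strand).
Rpl22: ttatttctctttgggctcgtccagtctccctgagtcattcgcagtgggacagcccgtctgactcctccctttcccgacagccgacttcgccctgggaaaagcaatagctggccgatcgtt
Rpl22l1: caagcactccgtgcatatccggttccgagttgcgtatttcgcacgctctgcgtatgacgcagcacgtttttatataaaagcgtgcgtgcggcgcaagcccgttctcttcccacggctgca
Rpl10 lies at chrX:74270716-74270835 (plus strand) and Rpl10l at chr12:66284382-66284501 (minus strand).
Rpl10: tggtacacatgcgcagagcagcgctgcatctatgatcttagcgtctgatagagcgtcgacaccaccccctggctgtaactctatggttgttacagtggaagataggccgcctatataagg
Rpl10l: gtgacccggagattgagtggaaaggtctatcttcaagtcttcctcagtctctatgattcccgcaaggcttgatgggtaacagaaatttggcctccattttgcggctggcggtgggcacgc
Rps27 lies at chr3:90213629-90213748 (minus strand) and Rpl28 at chr7:4792865-4792984 (plus strand).
Rps27: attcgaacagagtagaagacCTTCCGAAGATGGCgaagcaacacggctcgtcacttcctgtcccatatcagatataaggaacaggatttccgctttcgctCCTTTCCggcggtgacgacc
Rpl28: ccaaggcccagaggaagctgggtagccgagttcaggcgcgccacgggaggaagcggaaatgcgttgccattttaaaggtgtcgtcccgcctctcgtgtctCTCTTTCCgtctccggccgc
Rpl36a lies at chrX:134585554-134585673 (plus strand) and Rpl41 at chr10:128549149-128549268 (minus strand).
Rpl36a: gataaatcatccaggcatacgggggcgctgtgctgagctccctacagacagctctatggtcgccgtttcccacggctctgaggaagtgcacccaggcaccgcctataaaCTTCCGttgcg
Rpl41: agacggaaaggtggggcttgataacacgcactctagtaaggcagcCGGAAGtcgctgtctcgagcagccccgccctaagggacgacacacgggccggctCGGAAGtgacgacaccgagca
Rps27 and Rpl28 carry the tract at the annotated start. In Rps27 the CTTCCG and AAGATGGC letters lie next to each other, and Rpl41 carries the reverse complement of CTTCCG at 2 places. No capitals fall in the shown stretch of Rpl39, Rpl22, Rpl22l1, Rpl10 or Rpl10l.

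Not every member was readable in every group. Above 0 in the 7 stage groups other than yolk sac were 62 members, 61 of them on both alleles in each, and 39 were above 0 in all 8. Extraembryonic ectoderm differed from the rest: 15 members were listed above 0 there and at 0 in every other stage group and in all 3 morula groups. They include Rpl11, a partner of the 5S ribosomal RNA, Rpl8 of the peptidyl transferase region, Rps23 of the decoding region and Rps27a, which is made as a fusion to ubiquitin. Their totals in extraembryonic ectoderm were 850 to 1615 FPKM, with a median of 1346, in the range of the other members.

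A gene that every cell uses cannot be read as silent from such a 0, and these zeros are treated as missing allele reads. The paternal shares of the 15 in extraembryonic ectoderm were also wide: 2.84% for Rps13 and 4.52% for Rpl18, with 5 of 15 between 40% and 60%. Of the other 59 autosomal members above 0 in the 7 groups, 42 lay in that window there, with a range of 14.2% to 82.2%. Over all genes, 66 were at 100 FPKM or more in extraembryonic ectoderm and at 0 in the other stage groups, yolk sac aside. Of these 66, 15 were members, and the morula table was not searched for the rest. The cause was not tested. The class sums below are therefore also given over members read in every group, and the ratio medians over members above 0 in both groups.

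Among the rest, Rpl29 was at 0 in inner cell mass and Rps7 at 0 in trophectoderm and epiblast. Rpl3l, the muscle paralog of Rpl3, Rps27rt and Rps4l were at 0 in all 8 stage groups. Rps4l was however listed at 438 FPKM in control male, 410 in control female and 243 in Xp XRRa KO morulae, so its 0 in the stage table's morula column is not an absence of expression in morulae. The heat map of member levels shows the zeros in grey.

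**Figure D1:**
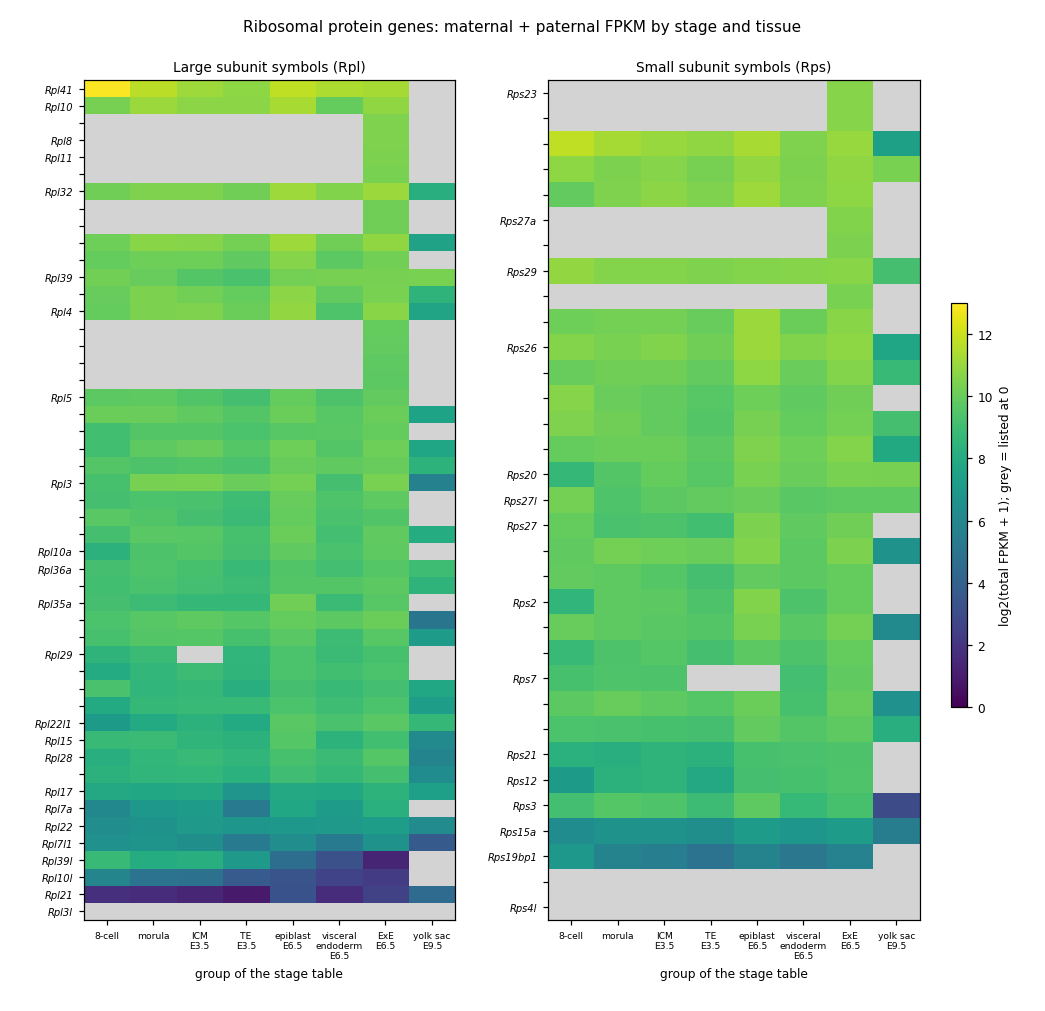
Log2 of total FPKM plus 1 (colour) of the 82 members (rows; large subunit symbols left, small subunit right; some rows are named) in the 8 groups of the stage table (columns), 1 authors' value per group; grey marks a total listed at 0. The 15 members coloured only in extraembryonic ectoderm stand out as rows that are otherwise grey, and Rpl39l and Rpl10l darken from 8-cell to E6.5.

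As a class, the members made up 14.9% of the summed FPKM at the 8-cell stage, 13.3% at the morula stage, 12.8% and 10.5% in inner cell mass and trophectoderm, and 18.8%, 14.0% and 18.5% in the E6.5 epiblast, visceral endoderm and extraembryonic ectoderm. Trophectoderm was thus lowest among these 7 and epiblast highest. Extraembryonic ectoderm was close to epiblast in percent only when the 15 members readable there alone are counted. Over the 32 members above 0 on both alleles in all 8 groups, the percentages were 7.5, 7.0, 6.97, 5.79, 9.81, 7.42 and 7.70 in the same order. Extraembryonic ectoderm then lay near visceral endoderm in percent. The FPKM sum divided by still held the 15 and was 446925 in extraembryonic ectoderm, 369461 in epiblast and 334639 in visceral endoderm. By gene, the median log2 ratio (on FPKM plus 1) to extraembryonic ectoderm was 0.06 for epiblast and -0.45 for visceral endoderm. With all members counted, the sparse yolk sac sample had 8.80%. Large subunit genes took slightly more of the total than small subunit genes in the 7 stage groups other than yolk sac. Epiblast had 10.1% and 8.66%, and extraembryonic ectoderm, with the 15 members counted, 10.1% and 8.39%. These sums run over 49 Rpl and 33 Rps symbols. Of the 62 members above 0 in the 7 groups, 32 were highest in epiblast, 18 in extraembryonic ectoderm, 10 in 8-cell embryos and 1 each in morula and visceral endoderm. Lowest were 28 in trophectoderm, 17 in 8-cell embryos and 12 in visceral endoderm. These counts were not made over all genes, so they do not show a trait particular to the members.

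The levels of single members spanned a wide range in every group. Rpl41, a very short peptide of the large subunit, was the most abundant in 8-cell embryos at 7700 FPKM and stood at 3188 in morula, 2166 in inner cell mass, 1779 in trophectoderm and, at E6.5, 3454 in epiblast, 2705 in visceral endoderm, then 2423 in extraembryonic ectoderm. Rps29, a small zinc-binding protein of the small subunit head, had 1912, 1546, 1516, 1435, 1564, 1605 and 1634 FPKM and so stayed between 1435 and 1634 after the 8-cell stage. At the low end, Rpl21 was listed at 2.43, 2.16, 1.64, 0.92, 8.73, 2.12 and 4.78 FPKM, and Rps15a at 80.4, 101.3, 101.9, 87.4, 141, 112 and 144 FPKM. Such low values for standard components sit beside many processed pseudogenes in this gene class, and the sources used here do not say how reads shared with such copies were handled.

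The step from 8-cell to morula follows the main wave of embryonic genome activation. Over the 63 members above 0 in both groups, the median log2 ratio of morula to 8-cell total (on FPKM plus 1) was 0.20, against 0.49 over 5484 genes with at least 5 FPKM in 1 group, so it turns to -0.28 when the groups are scaled to the median gene. By a size rule of at least 2-fold, 4 members were higher and 2 lower; of all genes, 31.3% were higher and 6.13% lower. Rps12 and Rps20 of the small subunit head, Rps2 at the mRNA entry, Rpl3 of the peptidyl transferase region and Rpl10a of the L1 stalk had the highest ratios. Rps12 went from 137 to 331 FPKM (log2 ratio 1.27), Rps2 from 374 to 882 (1.24), Rpl3 from 596 to 1270 (1.09) and Rpl10a from 322 to 650 (1.01). Rpl41 had the lowest ratio (-1.27), followed by Rps19bp1, whose product binds Rps19 (120 to 54.9 FPKM, -1.12). The small subunit median was 0.04 (13 of 26 positive) and the large subunit median 0.25 (27 of 37 positive). Mitochondrial ribosomal protein genes had a median of -0.26 (25 of 69 positive) and translation factors 0.75 (22 of 30 positive). The 8-cell embryos still held oocyte marker RNA at a sum of 49.9 FPKM, against 34.0 in morulae; its part in these ratios was not tested.

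From morula to blastocyst, the 2 lineages separated in their member levels. Inner cell mass stayed at the morula level, with a median log2 ratio of 0.01 over 62 members (all genes 0.14, so -0.13 relative to the median gene) and with 0 members past 2-fold in either direction, against 18% of genes higher and 10.1% lower. In trophectoderm the median to morula was -0.31 and 56 of 62 members were negative (all genes 0.02). Past 2-fold were 0 members higher and 4 lower, against 21.7% and 16.9% of genes, so the difference was small per gene and shared by most members. The 4 were Rpl7a (122 to 38.5 FPKM, -1.64), Rpl7l1 (105 to 41.9, -1.31), Rpl10l (30.3 to 12.3, -1.23) and Rpl39l (267 to 126, -1.07). Only Rpl7a among them is a standard component. Rps27l, a paralog of Rps27 that is induced by p53, went the other way (686 to 945 FPKM, 0.46).

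Directly compared, inner cell mass was above trophectoderm in 58 of 61 members above 0 in both, with a median of 0.31 against 0.10 over all genes. The 5 members past 2-fold higher were the same 4 and Rpl17, a protein at the rim of the exit tunnel (229 against 110 FPKM, 1.05); 0 were past 2-fold lower, and the shares over all genes were 12.6% and 11.6%. Large and small subunit medians were both 0.31. All 6 measured members of the exit tunnel list and all 8 of the small subunit head list were positive. Genes of ribosome biogenesis, which make and process ribosomal RNA, had a larger difference: their median was 0.81, with 49 of 51 positive, and to morula their trophectoderm median was -1.03, with 51 of 51 negative and 27 past 2-fold lower. Mitochondrial ribosomal protein genes had 0.04 (39 of 69 positive). Only 2 and 3 samples lie behind these pooled values, and the inner cell mass samples also held trophectoderm markers.

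At E6.5, the epiblast sample had higher member levels than inner cell mass. The median log2 ratio was 0.45 over 62 members, with 57 positive and all 25 small subunit genes among them, against -0.23 over all genes. The size rule gave 5 members higher and 2 lower, against 13.6% and 26.4% of genes. Higher were Rpl21 (1.64 to 8.73 FPKM, 1.88), Rpl35a (403 to 1150, 1.51), Rpl22l1 (325 to 813, 1.32), Rps27 (650 to 1382, 1.09) and Rpl15 (363 to 749, 1.04). Lower were Rpl39l (279 to 25.2, -3.42) and Rpl10l (27.9 to 9.45, -1.47). Ribosome biogenesis genes had a median of 0.18 (32 of 53 positive). The epiblast is 1 sample, so these values have no replicate behind them.

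Extraembryonic ectoderm descends from the polar trophectoderm, and the pair showed a difference of the same direction. Its median to trophectoderm was 0.64 over the 62 members above 0 in both (0.75 with those listed at 0 in trophectoderm), against 0.18 over all genes, and all 56 standard components were positive. Past 2-fold were 7 higher and 2 lower, against 19.4% and 17% of genes. Rpl7a had 38.5 FPKM in trophectoderm and 309 in extraembryonic ectoderm (2.97), Rpl22l1 245 and 810 (1.72), Rpl17 110 and 338 (1.62) and Rps12 227 and 676 (1.57). Ribosome biogenesis genes again differed by more (median 1.09, 51 of 53 positive, 29 past 2-fold higher).

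Within E6.5, visceral endoderm was lowest in 54 of the 63 members above 0 in the 3 tissues (85.7%), as were 51.6% of 6661 genes; epiblast was highest in 41 and extraembryonic ectoderm in 21. The median of visceral endoderm to extraembryonic ectoderm was -0.45 over 63 members, 59 of them negative, but the median over all genes was -0.46, so members did not stand below the median gene. Past 2-fold were 1 member higher and 4 lower, against 10% and 24.5% of genes. The 4 were Rpl7l1 (97.1 to 38.8 FPKM, -1.30), Rpl4 of the exit tunnel (1646 to 674, -1.29), Rpl3 (1340 to 583, -1.20) and Rpl7a (309 to 138, -1.16). Ribosome biogenesis genes had -1.17 (50 of 53 negative, 34 past 2-fold lower), translation factors -0.89 and mitochondrial ribosomal protein genes -0.63. Epiblast to extraembryonic ectoderm had a member median of 0.06 over 63 members, against -0.25 over all genes. Only Rpl39l and Rpl10l were past 2-fold higher and 0 members lower, against 6.53% and 16.2% of genes.

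The yolk sac sample had 43 of 82 members at 0. Over the 39 members above 0 in yolk sac and visceral endoderm the median was -1.61, against -0.27 over all genes, with 1 member past 2-fold higher and 29 lower (15% and 28.4% of genes). Levels were uneven: Rps20, Rps14, Rpl39 and Rps27l stood at 1267, 1353, 1324 and 861 FPKM, against 1029, 1399, 1289 and 802 in visceral endoderm, whereas Rps3 of the mRNA entry stood at 6.98 against 415 and Rpl23a of the exit tunnel at 32.3 against 834. Mitochondrial ribosomal protein genes were also low (median -1.27, 36 of 39 negative). With 1 sample and most genes at 0, these ratios describe that library.

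Most members have short and abundant transcripts, so each median can be set beside that of other genes at 100 FPKM or more in 1 group and of those among them under 1000 nt. For morula to 8-cell these were -0.017 and -0.27, below the members' 0.20. For inner cell mass to morula they were -0.037 and 0.22 (members 0.01), and for trophectoderm to morula -0.079 and 0.13 (members -0.31). Trophectoderm was thus below morula in the members and not in short abundant genes. Inner cell mass to trophectoderm gave 0.022 and 0.021 (members 0.31). Epiblast to inner cell mass gave -0.10 and -0.11 (members 0.45), and extraembryonic ectoderm to trophectoderm 0.0019 and -0.0025 (members 0.64). In these 3 comparisons the members' median was above both classes. Visceral endoderm to extraembryonic ectoderm gave -0.66 and -0.36 (members -0.45), epiblast to extraembryonic ectoderm -0.045 and 0.0082 (members 0.06), and yolk sac to visceral endoderm -0.58 and -1.0 (members -1.61). The members thus lay between the classes for visceral endoderm, near both for epiblast to extraembryonic ectoderm and below both for yolk sac. These medians are descriptions of pooled columns, and the part of length and level was not tested.

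The paralogs had patterns of their own. Rpl39l, an autosomal copy of the exit tunnel gene Rpl39 best known from the testis, shares 85.0% of coding bases with it. Rpl39l had 439 FPKM in 8-cell embryos, 267 in morula, 279 in inner cell mass, 126 in trophectoderm, 25.2 in epiblast, 8.45 in visceral endoderm, then 1.5 in extraembryonic ectoderm. Rpl39 had 1202, 1002, 721, 619, 1246, 1289 and 1288 FPKM. The copy was thus lower in morula and inner cell mass than at the 8-cell stage, lower again in trophectoderm and lowest in the E6.5 tissues. The parent had its lowest values in the blastocyst and at E6.5 stood near its 8-cell level. In the morula table Rpl39l had 168, 261 and 220 FPKM in control males, control females and the knockout.

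Rpl10l, a testis-expressed retrogene of Rpl10 (84.7% of coding bases shared), had 60.1, 30.3, 27.9, 12.3, 9.45, 5.14 and 3.81 FPKM in the same order. Rpl10, whose protein joins the large subunit late in its assembly, had 1288, 2142, 1681, 1690, 2557, 971 and 1849 FPKM. Rpl10l was highest at the 8-cell stage and lowest in the E6.5 extraembryonic tissues, as Rpl39l was.

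The opposite pattern was found for Rpl22l1, the paralog of the RNA-binding protein gene Rpl22 (68.2% of coding bases shared). It had 136, 249, 325, 245, 813, 616 and 810 FPKM, whereas Rpl22 had 82.3, 98.4, 125, 114, 119, 128 and 154 FPKM. In 8-cell embryos Rpl22 was read from the maternal allele alone, with 0 paternal FPKM, so its total there may lack paternal reads. As listed, Rpl22l1 was above its parent in all 7 groups, uncertainly so in 8-cell embryos, and furthest above it in the 3 E6.5 tissues. This order did not hold throughout the morula table, where Rpl22l1 and Rpl22 had 81.6 and 59.2 FPKM in control males, 56.9 and 107 in control females and 54.8 and 28.9 in the knockout. Rps27l stood at 1230, 686, 852, 945, 1049, 802 and 882 FPKM beside 959, 615, 650, 532, 1382, 907 and 1174 for Rps27, the zinc-finger protein it resembles (76.2% of coding bases shared). Rps27l was above Rps27 in 8-cell embryos, morula, inner cell mass and trophectoderm and below it in the 3 E6.5 tissues. Rps19bp1 had its highest value in 8-cell embryos (120 FPKM) and its lowest in trophectoderm (29.4), and Rpl7l1 ranged from 38.8 in visceral endoderm to 105 in morula. The level plot of the 4 pairs shows these orders.

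**Figure D2:**
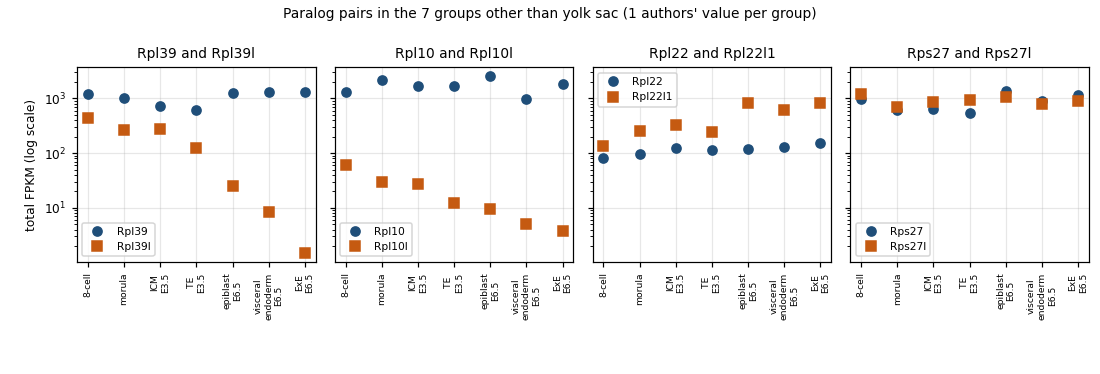
Total FPKM on a log axis of 4 parent genes (circles) and their paralogs (squares) in the 7 stage groups other than yolk sac, 1 authors' value per group. Rpl39l goes from 439 to 1.5 FPKM and Rpl10l from 60.1 to 3.81, Rpl22l1 lies above Rpl22 in the 7 groups, and Rps27l and Rps27 cross. The 8-cell value of Rpl22 comes from the maternal allele alone.

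In the morula table, the members were lower in Xp XRRa KO females than in control females. They made up 12.4% of FPKM in the knockout, 16% in control females and 14.3% in control males. Over the 64 members above 0 in both female groups the median log2 ratio was -0.66 and 63 were negative, against 0.05 over 5569 genes. All 27 small subunit genes were negative (median -0.70), as were 36 of 37 large subunit genes (-0.64). By the size rule 0 members were higher and 6 lower (Rpl29, Rpl22, Rps7, Rpl21, Rps12 and Rps21), against 4.04% and 3.41% of genes. The same direction was found against control males, with a median of -0.48 and 56 of 65 negative (all genes -0.06). There 1 member was higher (Rpl5, which was listed at 0 in control females) and 3 were lower (Rpl29, Rpl22 and Rps21), against 5.27% and 5.54% of genes. These 2 comparisons share the knockout column, and control females were themselves above control males (median 0.18, 57 of 64 positive, all genes -0.09), with 0 members past 2-fold either way against 2.58% and 2.8% of genes.

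Rpl22 was at 59.2 FPKM in control males, 107 in control females and 28.9 in the knockout (-1.86 to control females). Rps12 was at 214, 265 and 118 (-1.15), Rps21 at 443, 462 and 220 (-1.07) and Rps27l at 1618, 1586 and 810 (-0.97). Among the abundant members, Rps29 was at 2001, 2257 and 1173, Rps26 of the mRNA exit at 1676, 1904 and 1054, and Rpl32 at 1284, 1497 and 867 FPKM. Rpl22, Rps12, Rps21 and Rps27l were named for their low ratios, and Rps29, Rps26 and Rpl32 after their values were seen. That the knockout had the lowest of the 3 values in these 7 genes follows from how they were chosen. Rpl29 had the lowest ratio (415 to 76.0 FPKM, -2.43), but its paternal FPKM was 0 in all 3 groups. Little different from control females were Rpl22l1 (56.9 and 54.8, -0.05), Rpl10 (1966 and 1881, -0.06), Rpl10l (-0.13), Rpl4 (1367 and 1229, -0.15) and Rpl3 (623 and 560, -0.15). Rpl17 alone among the 64 was higher (131 and 208, 0.66).

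Other gene classes differed as well. Of the 7 measured ribosomal protein genes outside the naming rule, such as Rplp0 and Rpsa, 7 were lower than in control females (median -0.77), and of 70 mitochondrial ribosomal protein genes 60 were (-0.37). Ribosome biogenesis genes were higher (median 0.46, 42 of 52 positive), and translation factors had 0.12. Transcript length moved with the ratio over genes that are not members: the median was -0.22 for transcripts under 1000 nt, -0.02 from 1000 to 2000 nt, 0.23 from 2000 to 4000 nt and 0.36 above that. Of 81 members with a length, 65 were under 1000 nt (median 711.5 nt). Level moved with it too, with -0.24 for other genes at 100 FPKM or more and -0.51 for the 289 of these under 1000 nt. The members' median of -0.66 therefore lies near that of short abundant genes in general. Control females to males showed no such steps in the same direction (-0.05, -0.08, -0.14 and -0.15). Trophectoderm markers also differed, with sums of 1332 FPKM in control males, 733 in control females and 459 in the knockout and all 8 genes above 0 in each. The part of transcript length and of these markers in the knockout values was not tested, and with 1 pooled column per group the genotype cannot be told apart from a difference between libraries.

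**Figure D3:**
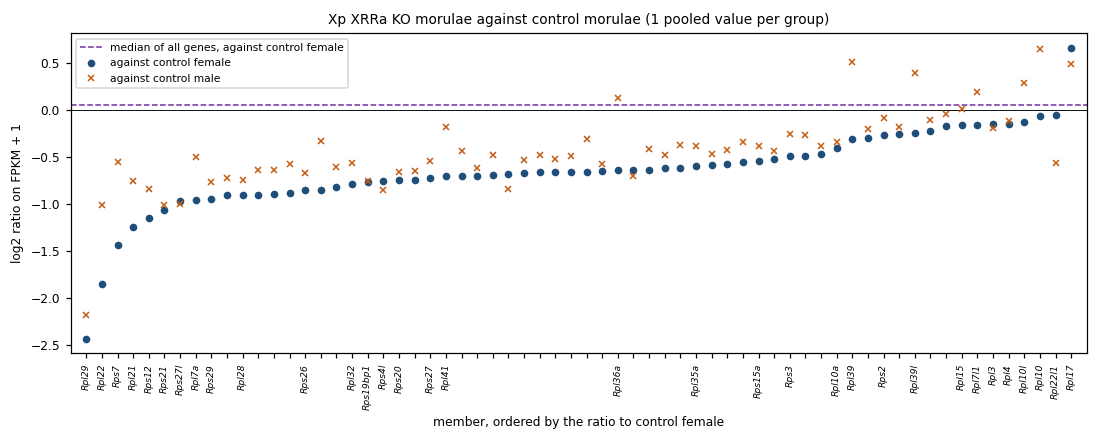
Log2 ratio of total FPKM plus 1 of each member (x axis, ordered, some named) in Xp XRRa KO morulae against control female (circles) and control male morulae (crosses); the dashed line is the median of all genes against control females, 0.05. The circles lie below 0 for 63 of 64 members, with Rpl17 above.

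In the median, the autosomal members were read at nearly equal paternal and maternal levels. The median paternal share of total FPKM was 49.2% in 8-cell embryos, 48.9% in morula, 49.2% in inner cell mass, 49.5% in trophectoderm, and 48.5%, 48.9% and 49.3% in the E6.5 epiblast, visceral endoderm and extraembryonic ectoderm. In the morula table it was 47.8%, 48.9% and 49.1% in control males, control females and the knockout. Other autosomal genes had medians of 46.8% to 49.2% in the 7 stage groups. Shares also held steady across groups: the range over groups of a member's share had a median of 7.48 percentage points over 59 autosomal members, against 14.8 over 3739 other autosomal genes and 10.6 over the 606 of these with a mean of 100 FPKM or more.

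The steadiest were Rpl31, at 47.9% to 49.5% in the 7 groups, Rpl37a at 43.7% to 45.6%, Rps27l at 48.9% to 51.4% and Rpl32 at 46.7% to 49.6%. Between 40% and 60% on average lay 46 of the 59, and 9 lay below and 4 above. Within single groups, this window held 67.2% to 81.7% of autosomal members in 8-cell embryos, morula, inner cell mass, trophectoderm and epiblast. Of other autosomal genes it held 46.0% to 64.0% there. In visceral endoderm it held fewer members than other genes (68.9% against 76.4%), as in extraembryonic ectoderm (61.8% against 75.8%). The 76 members behind the 61.8% include the 15 readable there alone, of which 5 lay in the window. Of the 59 other autosomal members above 0 in the 7 stage groups other than yolk sac, 42 did. Rpl28 of the large subunit leaned to the paternal PWK/PhJ allele in every group, with 87.3%, 81.0%, 82.7%, 78.9%, 80.7%, 82% and 82.2% from 8-cell to extraembryonic ectoderm, and with 84.5%, 86.9% and 83.3% in the morula table. Rps6, a target of S6 kinase, averaged 64.1% (60.1% to 69.5%) and Rps20 60.9%. To the maternal C57BL/6N allele leaned Rpl7a (27.5%, 27.2%, 26.2%, 24.8%, 26.1%, 33.7% and 22.2%), Rps25 (35.6%, 22.6%, 27.3%, 28.0%, 33.3%, 28.4% and 24.6%) and Rpl12 (mean 34.4%). In all, 18 autosomal members were below 50% in each group with a share and 10 above it. The same counts were not made for other autosomal genes. Whether such leanings come from the alleles or from how reads were assigned to them was not tested.

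Extreme shares went with zeros. Rpl29 had 0 paternal FPKM in the 5 stage groups with a reading other than extraembryonic ectoderm, where its share was 5.19%, and 0 in all 3 morula groups, with maternal values of 348 to 643 FPKM outside the knockout. Rps7 was read only from the paternal allele in visceral endoderm (550 FPKM) and only from the maternal allele in control male (326 FPKM) and knockout morulae (222 FPKM). Its share was 75% in 8-cell embryos, 33.3% in morula and 5.66% in extraembryonic ectoderm, so it gives no stable share. Rpl5, which binds the 5S RNA with Rpl11, went from 27.6% to 77.8% over the stage groups, and Rpl22 from 0% in 8-cell embryos to 64.5% in morula. These shares are not read as allelic silencing, since a 0 on 1 allele can be a lack of reads that tell the alleles apart.

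**Figure D4:**
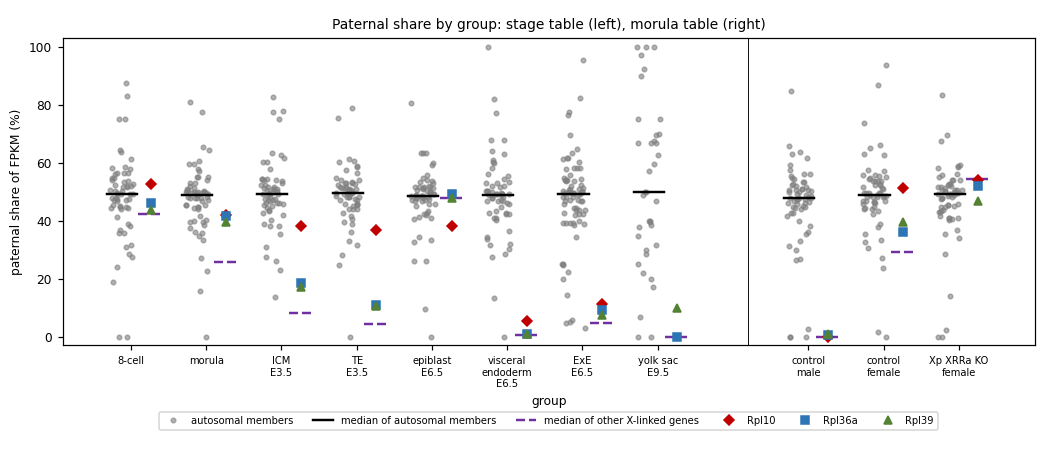
Paternal share of FPKM (percent) of autosomal members (grey points, black line at their median), of Rpl10, Rpl36a and Rpl39 (coloured symbols) and the median of other X-linked genes (dashed) in the 8 stage groups and the 3 morula groups. Autosomal medians lie between 47.8% and 50%, while the X-linked members are low in visceral endoderm, extraembryonic ectoderm and male morulae.

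The paternal X chromosome of female mouse embryos is imprinted to fall silent during early development, is reactivated in the epiblast and stays silent in extraembryonic lineages. Of the 3 X-linked members, Rpl39 and Rpl36a had shares that moved with those of other X-linked genes, and Rpl10 had another pattern. Rpl39 had a paternal share of 43.6% at the 8-cell stage, 39.6% at the morula stage, 17.1% and 10.5% in inner cell mass and trophectoderm, and 47.9%, 0.905% and 7.28% in the E6.5 epiblast, visceral endoderm and extraembryonic ectoderm. Rpl36a, which sits in the large subunit near the tRNA exit site, had 46.2%, 41.6%, 18.4%, 11%, 49.1%, 0.891% and 9.06%. Both moved together and were below 20% in the blastocyst and in the E6.5 extraembryonic tissues.

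Other X-linked genes had medians of 42.4%, 25.9%, 8.00%, 4.35%, 47.8%, 0.604% and 4.68% in the same order. In morula, 71.7% of the other X-linked genes lay below Rpl39 and 76.5% below Rpl36a, and in trophectoderm 64.3% and 64.7% did. Rpl10 stood higher: its shares were 52.5%, 41.9%, 38.1%, 36.7%, 38.1%, 5.32% and 11.2%. In inner cell mass 90.6% and in trophectoderm 97.4% of other X-linked genes lay below it, but in epiblast only 21.6% did. Its listed share was thus nearly the same in inner cell mass, trophectoderm and epiblast, but the number of reads behind these shares is unknown. In yolk sac Rpl36a had 0% and Rpl39 10%.

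In the morula table, control males, which carry no paternal X, gave a background of 0% for Rpl10, 0.427% for Rpl36a and 0.831% for Rpl39. Control females had 51.4%, 36.0% and 39.6%, and the knockout had 54.0%, 51.9% and 46.6%. Over other X-linked genes the medians were 0%, 29.2% and 54.4%. All 3 members thus had a higher share in the knockout than in control females, by little in Rpl10. Totals were 1199, 1966 and 1881 FPKM for Rpl10, 395, 673 and 431 for Rpl36a and 566, 997 and 806 for Rpl39 in males, control females and the knockout. Females were above males in all 3. Against control females these totals were not higher in the knockout, with log2 ratios of -0.06, -0.64 and -0.31 beside the members' median of -0.66.

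In the 13 EedmNull embryos, a value exists for each embryo and allele. Nothing in the labels says that they came from separate litters, so p-values measure the spread between these embryos. The paternal share of Rpl36a ranged from 1.06% to 74.1% with a median of 33.7%, and that of Rpl39 from 0% to 74.3% with a median of 33.8%. In the stage table, wild-type extraembryonic ectoderm at E6.5 had 9.06% and 7.28%; the tables were processed separately and no test joins them. The shares of Rpl36a by embryo, from 1 to 13, were 1.19%, 21.4%, 6.86%, 1.06%, 4.64%, 22.9%, 43.1%, 51.9%, 41.6%, 33.7%, 60%, 51.7% and 74.1%. Embryos 1 and 4 were at about 1% and embryo 13 at the top, with the others spread between. For Rpl39 the same embryos had 1.29%, 21.3%, 7.94%, 0%, 11%, 22.7%, 42.9%, 51.8%, 44.8%, 33.8%, 56.7%, 56.8% and 74.3%.

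Both genes tracked the embryo. Over the 13 embryos Pearson's r with the median share of other X-linked genes was 0.997 for Rpl36a and 0.995 for Rpl39 (Spearman's rho 0.989 and 0.984), and between the 2 genes it was 0.994 (rho 0.973). Each permutation p was 1e-05, the smallest that 100000 permutations give, and 1.3e-05 after Benjamini-Hochberg adjustment over the 4 relations computed, for r as for rho. Without the 2 embryos farthest from the median (13 and 4) r was 0.996, 0.991 and 0.991. The values of an embryo come from the same library. This relation was not computed for single other X-linked genes, so it is not shown to be particular to Rpl36a and Rpl39. The difference from the embryo's median was -2.07 ± 2.64 points (SD, n = 13) for Rpl36a and -1.21 ± 3.4 (SD, n = 13) for Rpl39, and at most 6.54 and 6.31 points in size.

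**Figure D5:**
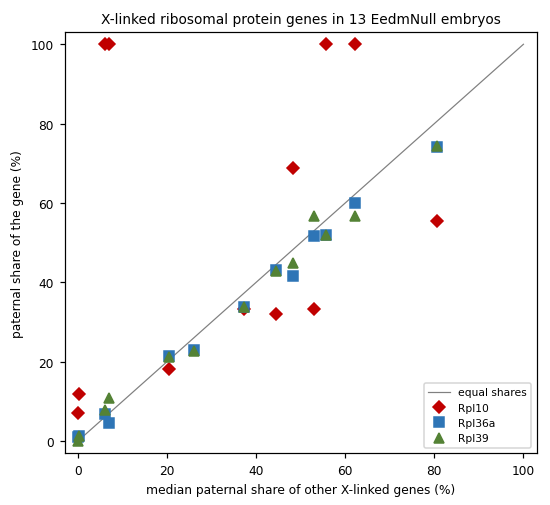
Paternal share (percent) of Rpl10, Rpl36a and Rpl39 in each EedmNull embryo (y axis) against the median share of the other X-linked genes of that embryo (x axis); the line marks equal shares. Rpl36a and Rpl39 lie within 6.54 points of the line, and Rpl10 lies at 100% in 4 embryos.

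Rpl10 did not show this relation (r = 0.257, permutation p = 0.414, adjusted 0.414; rho = 0.456, p = 0.139, n = 12; r = -0.12 without embryos 4 and 1). It was at 100% in embryos 3, 5, 8 and 11 and listed at 0 on both alleles in embryo 6, while its total was steady at 2065 ± 136 FPKM (SD, n = 12). The number of reads behind its share is unknown. Totals were 779 ± 120 FPKM for Rpl36a and 1426 ± 338 for Rpl39 (SD, n = 13 each).

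Averaged over embryos, the limma fit over 300 X-linked genes called none of the 3 different between the alleles after adjustment. In that fit the log2 ratio of paternal to maternal FPKM plus 1 was -1.83 (SE 0.653, adjusted p = 0.0727) for Rpl36a and -1.98 (SE 0.804, adjusted p = 0.0854) for Rpl39, each lower in 9 of 13 embryos, and 2.59 (SE 1.5, adjusted p = 0.148) for Rpl10. Of the 300 genes, 9% were called paternal lower and 0.333% higher. The exact two-sided sign-flip permutation test of single genes, which can reach 0.000244 with 13 embryos, gave an unadjusted p = 0.0217 for Rpl36a, 0.0249 for Rpl39 and 0.125 for Rpl10. The single-gene test thus puts Rpl36a and Rpl39 below 0.05 where the adjusted limma p does not. The limma call depended on embryo 13: without it limma gave -2.11 (adjusted p = 0.0232) for Rpl36a and -2.27 (adjusted p = 0.0304) for Rpl39. Without embryos 1 and 4, an omission chosen after seeing the data, the ratios were -1.02 (adjusted p = 0.302) and -0.86 (adjusted p = 0.312). Over all alternatives the adjusted p ranged from 0.0232 to 0.302 for Rpl36a and from 0.0304 to 0.312 for Rpl39. Embryo 6, at 0 on both alleles of Rpl10, entered that fit with a ratio of 0, and without it Rpl10 had 2.80 (limma adjusted p = 0.145). In embryos 1 and 4 the median share of other X-linked genes was 0.196% and 0%.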

How the data were processed

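The authors computed FPKM and deposited 1 column per allele. Named in the submitters' processing notes are Trim Galore 0.6.4, HISAT2 2.2.0, StringTie 2.1.1 and the mm9 assembly. How reads were assigned to alleles is not stated in any label used here. Totals are the sum of both alleles, and shares were taken at totals of at least 1 FPKM. 5 summary lines of the stage table were left out. Ratios are log2 of FPKM plus 1, which understates changes of low genes, for genes with at least 5 FPKM in 1 group; counts use a 2-fold size rule and totals above 0 in both groups, since pooled columns allow no test. No fold of a single gene is given against a listed 0, but medians that take in members listed at 0, named as such, use FPKM plus 1. Depth is unknown, so no interval for counting error was given.

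EedmNull embryos were fitted with limma 3.58.1 in R 4.3.3 on the log2 paternal to maternal ratio of each embryo, with Benjamini-Hochberg adjustment over all genes tested, and 100000 permutations served for correlations (seed 7). The fit and the sign-flip test were tested on simulated data. Python 3.11.15 with pandas 2.3.3, scipy 1.17.1, Biopython 1.88 and matplotlib 3.10.9 did the rest. Chromosomes, names and coding sequences for paralog identity came from reference annotations of a later build than mm9. Members, gene lists and tests were chosen with earlier results of these data known. Named were the up to 5 highest and lowest ratios per comparison with both alleles above 0, the X-linked members, paralogs and their parents, the extremes of level, share and share range, the largest values beside a 0 on the other allele, and examples of role lists; Rps29, Rps26 and Rpl32 in the knockout comparison were chosen after their values were seen. Alternatives were another pseudocount, scaling to the median gene, both alleles above 0, the list without paralogs, summed shares and leaving out each embryo. Values of some single members are not reported here.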

Additional observations from a re-analysis of the deposited data

How the results depend on the processing

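Over pooled columns, 86 alternative medians stayed within the interval of the main median, which was taken from the ranked member values with zeros kept. Outside it lay 19, and 3 reversed. A change of sign was called reversed only where that interval excluded 0. Of the counts, 95 higher and 95 lower ones stayed within 1.5 times, and 13 and 13 did not. Members listed at 0 in 1 group moved the median to -0.32 for trophectoderm to morula, 0.75 for extraembryonic ectoderm to trophectoderm, -0.51 for visceral endoderm to extraembryonic ectoderm, 0.01 for epiblast to extraembryonic ectoderm and -2.80 for yolk sac to visceral endoderm. Without them yolk sac had -1.61. Scaling to a median of 0 over all genes, with members and genes listed at 0 in 1 group kept in, turned morula to 8-cell to -0.29, and gave -0.13 for inner cell mass to morula, 0.20 for inner cell mass to trophectoderm, 0.71 for epiblast to inner cell mass, 0.53 for extraembryonic ectoderm to trophectoderm, -0.021 for visceral endoderm to extraembryonic ectoderm, 0.30 for epiblast to extraembryonic ectoderm, -0.81 for yolk sac to visceral endoderm, -0.71 for the knockout to control females and 0.27 for control females to males. With members and genes above 0 in both groups only, the scaled medians in this order were -0.28 (reversed), -0.13, 0.21, 0.68, 0.46, 0.013 (reversed), 0.32, -1.34, -0.71 and 0.27. With both alleles above 0 in both groups, yolk sac to visceral endoderm was -1.47.

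Counts past 2-fold (higher, lower) under the scaling with zeros kept were 0 and 8 for morula to 8-cell (4 and 2 without it), 10 and 7 for yolk sac (1 and 29; the subtracted all-gene median was -1.99 there, and 1 and 26 were counted without zeros), 3 higher for inner cell mass to trophectoderm (5), 9 higher for epiblast to inner cell mass (5), 4 higher for extraembryonic ectoderm to trophectoderm (7), 0 lower for visceral endoderm (4) and 1 lower for the knockout to control males (3). Without paralogs and lookalike symbols, 1 was lower for morula to 8-cell, 1 lower for trophectoderm to morula (4), 2 higher for inner cell mass to trophectoderm, 0 lower for epiblast to inner cell mass (2) and for extraembryonic ectoderm to trophectoderm (2), 0 higher for visceral endoderm (1) and 0 higher for epiblast to extraembryonic ectoderm (2). A pseudocount of 5 left 1 lower for extraembryonic ectoderm to trophectoderm, 1 higher for epiblast to extraembryonic ectoderm and 1 lower for the knockout to control males; with both alleles above 0, 0 were higher for yolk sac and for the knockout to control males.

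Shares from summed FPKM were 54.4% in 8-cell embryos (49.2% as a median) and 50.4% in visceral endoderm (48.9%). As percent of all FPKM, the 32 members read on both alleles in every stage group gave 7.5, 7.0, 6.97, 5.79, 9.81, 7.42 and 7.70, by construction of fewer genes. In EedmNull embryos, the ratio minus the embryo's median over X-linked genes was -1.07 for Rpl36a (limma adjusted p = 0.0482, now past the threshold; 11.3% of genes called higher and 12.3% lower). Leaving out each embryo gave -2.11 to -1.46 for Rpl36a, -2.27 to -1.30 for Rpl39 and 1.87 to 3.11 for Rpl10, and among these omissions only that of embryo 13 moved a call. The alternatives with genes above 0 in both groups, that without embryos 1 and 4, the control male reference and the sums over members above 0 on both alleles in 7 stage groups were chosen after seeing the data. The cause was not tested. No paired analysis was possible because the pooled columns carry no replicate number to pair groups by; the alleles of each EedmNull embryo were compared within it. Depth limits could not be given without counts.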

Other observations

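Several members, chosen after their values were seen, had a paternal share in epiblast that lay apart from the other 6 stage groups and close to the morula table. Rpl41 was at 49.8% in epiblast and at 75.2% to 82.8% in the other 6 stage groups, while the morula table had 53.4%, 54.8% and 50.4%. Rps10 of the small subunit head was at 46.7% in epiblast, at 57.9% to 61.7% in the other 6, and at 46.0%, 50.8% and 49.3% in the morula table. Rpl35a was at 47.7%, against 31.0% to 43.7%, and at 47.5%, 48.1% and 50.3%. Rpl19 of the exit tunnel was at 53.9%, against 41.5% to 47.0%, and at 54.2%, 55.6% and 58.7%. Rpl12 was at 43.3%, against 28.5% to 35.3%, and at 46.6%, 45.6% and 45.2%. The morula column of the stage table and the control female morulae, both wild type from the same cross, thus gave different shares for these genes.

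Over the 55 autosomal members with at least 5 FPKM in these 10 groups, the epiblast share differed by over 5 points from the morula table in 8 (control males), 12 (control females) and 9 members (knockout), and from the other stage groups in 13 to 17. Of 200 other autosomal genes at 100 FPKM or more in the 10 groups, 33%, 33% and 35.5% differed by over 5 points from the morula table, and 15.5% to 43.5% from the other stage groups. Levels of Rpl22l1 also differed between the tables, with 249 FPKM in the stage table's morulae and 81.6, 56.9 and 54.8 FPKM in the morula table, which was normalized separately.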
